A study of Mus musculus with 6 samples.

Results

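The 39 genes examined here are genes of blood vessel and lymphatic endothelium, taken by name: surface and junction proteins of endothelial cells, the vascular endothelial growth factors (VEGF) and their receptors, the angiopoietins and TIE receptors, Notch pathway genes, endothelial transcription factors, lymphatic genes and the adhesion molecules that recruit leukocytes. Of these names, 38 matched a gene among the 55039 listed in the deposited tables, and all 38 were among the 17296 genes tested. The name Eng2 matched no gene name, and Eng, the endothelial TGF-beta co-receptor endoglin, was measured as one of the other endothelial genes below. The tissue was epididymal white adipose tissue (eWAT), the gonadal fat depot of male mice, profiled by poly(A) RNA sequencing of whole tissue. The mice were male C57BL/6, 6 to 7 weeks old at the start. The CAC group (cancer-associated cachexia) had received Lewis lung carcinoma (LLC) cells, a mouse lung tumor line, in phosphate-buffered saline (PBS) under the skin of the lower back, the CONT group had received PBS alone, and both were killed 28 days later. Each group had 3 libraries, and the study took 1 library from each mouse, so that the spread between libraries is a spread between mice.

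In adult fat, each adipocyte lies next to capillaries, which deliver oxygen, fatty acids and hormones and carry released lipid away. VEGF-A signals through the receptors VEGFR1 and VEGFR2 to keep these capillaries open and growing, VEGF-C signals through VEGFR3 to lymphatic vessels, the angiopoietins act on TIE2 to stabilize or loosen the vessel wall, and Notch signals between neighbouring endothelial cells set arterial and tip cell fates. Most of the genes below are made by endothelial cells, whereas the VEGF ligands are made largely by the cells around them, adipocytes and stromal cells among them.

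No vessel gene passed an adjusted p under 0.05 in edgeR's quasi-likelihood test, in which 0% of all genes tested passed. At an unadjusted p under 0.05 there were 7 of 38 vessel genes, against 13.3% of all genes tested. These were Vegfa, Flt1, Flt4 and Plvap, higher in CAC (6.31% of all genes were called in that direction), and Vegfc, Pdpn and Aplnr, lower in CAC (6.95% of all genes). In 10 vessel genes the libraries of the groups did not overlap, 5 in each direction, whereas 22.5% of all genes did not overlap. The differences were balanced over the vessel genes: 20 of 38 had a log2 fold change below 0, against 54.1% of all genes, the median was -0.04, and the median over all genes tested was -0.06. With DESeq2, 4 vessel genes had an adjusted p under 0.05 (Vegfc, Pdpn, Aplnr and Vegfa), against 4.97% of all genes that received an adjusted p, and limma with voom and quality weights for each sample left Vegfc alone, against 5.51%. Because whole tissue was sequenced, fewer cells of a type and less RNA per cell cannot be told apart in any of these values.

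The libraries held 15713794 to 25926425 counts, and 1 CPM (a read count scaled to the TMM-adjusted library size) stood for 11.2 to 26.5 reads. CONT replicate 1 stood apart from the others. It held 30.2% mitochondrial reads, against 3.89% to 5.04% in the rest, and over 5830 well-expressed genes the ratio of its level to the other controls fell with gene length (Spearman's rho = -0.486, across genes of the same libraries). It was also the control with the highest endothelial signal: the mean log2 CPM of 11 endothelial markers, all of them vessel genes of this set, was 8.05 there, 6.81 and 6.84 in CONT replicates 2 and 3, and 7.09 to 7.33 in the CAC libraries. All 11 were detected in every library, so that endothelium was present throughout, and with all 6 libraries none of them reached an unadjusted p below 0.05 in edgeR. Without CONT replicate 1, Pecam1, Esam, Emcn and Cldn5 did, all higher in CAC, and the median log2 fold change of the 11 markers went from -0.10 to 0.25. This library was the highest of the 6 for 18 vessel genes and the lowest for 10, so the estimate without it stands beside each vessel gene whose direction turned without it. Without it, 11 vessel genes had an unadjusted p under 0.05, against 15.6% of all genes. Of these, 9 were higher in CAC (Pecam1, Esam, Emcn, Cldn5, Vwf, Plvap, Flt1, Flt4 and Vegfa) and 2 lower (Vegfc and Pdpn), against 7.3% and 8.28% of all genes. The groups then did not overlap in 14 vessel genes (37.7% of all genes), 9 of them higher in CAC (18.1%) and 5 lower (19.6%), and the log2 fold change was above 0 in 27 of 38, against 47.5% of all genes. In DESeq2 without it, 9 vessel genes had an adjusted p under 0.05, against 11.9% of all genes.

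**Figure D1:**
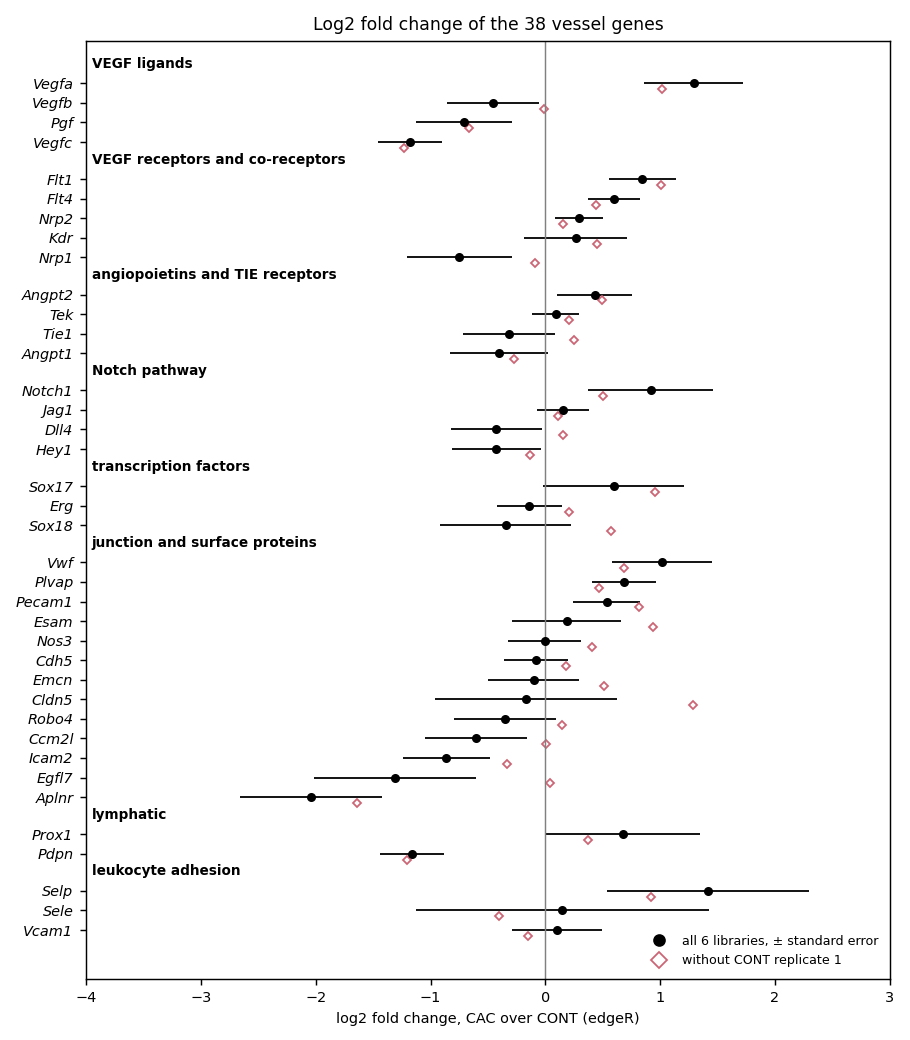
Log2 fold change of the 38 vessel genes, CAC over CONT, grouped by role. Black points with lines are edgeR's estimate ± its standard error from all 6 libraries and open diamonds are the estimate without CONT replicate 1. Aplnr, Vegfc and Pdpn lie left of -1 in both estimates and Vegfa lies right of 1 in both, whereas Cldn5, Sox18 and Emcn cross 0 between them.

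The promoters of Vegfa, Flt1, Vegfc and Pdpn are shown because these are the VEGF ligands, the receptor and the lymphatic gene on which the results below turn. Each run covers the 250 bases before an annotated start in RefSeq's table for GRCm38.p6, read 5′ to 3′ in the direction of the gene. The table held 2 promoter entries for Vegfa and 1 each for Flt1, Vegfc and Pdpn. Only the first entry of each gene was used, here and in the motif counts below. Capitals mark the letters GGGCGG, a core of sites for SP and KLF factors, on either strand. They lie at chr17:46032378-46032627 (minus strand), chr5:147726012-147726261 (minus strand), chr8:54077282-54077531 (plus strand) and chr4:143299565-143299814 (minus strand), in that order.
Vegfa: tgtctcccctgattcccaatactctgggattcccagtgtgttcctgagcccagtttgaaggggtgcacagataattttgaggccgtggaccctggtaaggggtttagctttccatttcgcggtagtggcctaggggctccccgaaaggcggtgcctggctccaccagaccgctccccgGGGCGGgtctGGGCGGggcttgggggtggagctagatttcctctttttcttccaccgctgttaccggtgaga
Flt1: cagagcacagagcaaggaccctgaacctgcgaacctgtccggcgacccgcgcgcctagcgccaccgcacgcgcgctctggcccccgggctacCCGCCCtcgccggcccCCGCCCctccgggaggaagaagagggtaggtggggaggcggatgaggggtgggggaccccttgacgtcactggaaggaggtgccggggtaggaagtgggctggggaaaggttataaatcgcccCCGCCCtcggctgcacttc
Vegfc: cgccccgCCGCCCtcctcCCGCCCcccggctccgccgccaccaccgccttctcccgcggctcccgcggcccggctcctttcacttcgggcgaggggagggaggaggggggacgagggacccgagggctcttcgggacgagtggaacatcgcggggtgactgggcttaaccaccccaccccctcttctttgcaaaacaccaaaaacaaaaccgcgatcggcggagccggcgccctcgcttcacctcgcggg
Pdpn: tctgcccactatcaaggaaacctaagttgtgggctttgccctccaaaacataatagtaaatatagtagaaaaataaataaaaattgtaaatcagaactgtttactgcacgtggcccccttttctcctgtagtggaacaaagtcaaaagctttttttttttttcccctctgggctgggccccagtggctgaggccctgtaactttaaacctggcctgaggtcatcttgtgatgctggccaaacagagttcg
The promoters of Vegfa and Vegfc, which differed in opposite directions, each held 2 such runs, Flt1 held 3 and Pdpn held 0. The GC content was 59.2% in Vegfa, 70.4% in Flt1, 71.6% in Vegfc and 43.2% in Pdpn. Of the vessel genes, 23 of 38 had a promoter in the table, and 14 of these 23 held GGGCGG on either strand, against 32.9% of the 27025 promoters.

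The other short motifs searched, each on both strands, were as follows. AGGAAG, an ETS core, was in 8 of 23 (29.2% of all promoters), and a different ETS core, CCGGAA, was in 1, Kdr (12.2%). TGGGAA, the core bound by RBPJ, was in 5 (21.5%), ACAAAG, a SOX core, was in 2 (16.5%), and ACGTG, the core of a hypoxia response element, was in Pdpn only among the vessel genes (16.6%). TGTTTAC, a FOX core, was also in Pdpn only (3.09%), AGATAA, which GATA factors bind, was in Vegfa only (10.3%), and a palindromic NF-kappaB site was in 0 of 23 (0.289%). These letter matches describe the windows and do not show binding.

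Among the VEGF ligands, Vegfa was higher and Vegfc lower in CAC, and the groups did not overlap in either. Vegfa, the main angiogenic ligand (ENSMUSG00000023951, chr17:46016993-46032369, minus strand, GRCm38), had 101, 234 and 219 CPM in CONT replicates 1 to 3 and 528, 558 and 272 CPM in CAC replicates 1 to 3. The lowest CAC library was only a little above the highest CONT library, and CAC replicates 1 and 2 stood well above both. The means were 185 ± 73.1 and 453 ± 157 CPM (SD, n = 3 each), a 2.45-fold difference (log2 fold change 1.29, SE 0.43), with an unadjusted p of 0.0215 and an adjusted p of 0.305 in edgeR's quasi-likelihood test. DESeq2's adjusted p was 0.0499. With 1 library left out in turn, the log2 fold change lay between 1.01 and 1.57, the lowest of these being the value without CONT replicate 1.

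Vegfc, the ligand that drives lymphatic growth (ENSMUSG00000031520, chr8:54077606-54187096, plus strand), had 9.45, 10.2 and 11.6 CPM in the CONT libraries and 4.56, 5.13 and 4.15 CPM in the CAC libraries. Both groups were tight, and the highest CAC library lay far below the lowest CONT library. It was 2.26-fold lower in CAC (log2 fold change -1.18, SE 0.28, -1.25 to -1.08 with 1 library left out), with an unadjusted p of 0.00449 and an adjusted p of 0.238 in edgeR, an adjusted p of 0.0011 in DESeq2 and of 0.0341 in voom with sample quality weights. The gene was counted at 106 to 257 reads a library.

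Pgf, placenta growth factor, a ligand of VEGFR1, had 9.63, 10.6 and 7.68 CPM in CONT and 2.96, 7.06 and 7.02 CPM in CAC. The groups did not overlap, but CAC replicates 2 and 3 were close to the lowest control, and the difference did not pass the threshold (log2 fold change -0.71, SE 0.42, edgeR unadjusted p = 0.134). Vegfb, a VEGFR1 ligand linked to fatty acid transport, was the most abundant ligand per length in CONT. It had 240, 113 and 122 CPM in CONT and 161, 108 and 77.0 CPM in CAC, with overlapping groups and a log2 fold change of -0.46 (SE 0.40) that was -0.01 without CONT replicate 1.

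The balance of the ligands can be read within each library as a ratio of FPKM (fragments scaled by gene length and library total), which does not depend on the library total. Vegfa over Vegfb was 0.157, 0.779 and 0.674 in CONT and 1.23, 1.94 and 1.32 in CAC. Per length, Vegfb was thus ahead in every CONT library and Vegfa in every CAC library. In CPM, Vegfa was ahead of Vegfb in CONT replicates 2 and 3 (234 and 219 against 113 and 122 CPM). CONT replicate 1, with the lowest ratio, is the library with the length trend, and Vegfa (4285 bases) is longer than Vegfb (1605 bases). The part of that trend in the ratio was not tested. Vegfa over Vegfc was 6.09, 13.1 and 10.8 in CONT and 66.3, 62.2 and 37.4 in CAC, so that the lowest CAC ratio was far above the highest CONT ratio. Since Vegfa was higher and Vegfc lower without overlap, that ratio had to separate the groups and is given as a description. Vegfb itself overlapped, but Vegfa alone already separated the groups in the same direction, so Vegfa over Vegfb is likewise a description. Its exact two-sided permutation test gives p = 0.1, the smallest value 3 against 3 libraries allow, and 6 ratios were computed in all. Among all 38 genes ordered by mean FPKM, Vegfa stood at position 9 in CONT (34.6 ± 13.5 FPKM) and 2 in CAC (86.3 ± 30.04 FPKM).

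**Figure D2:**
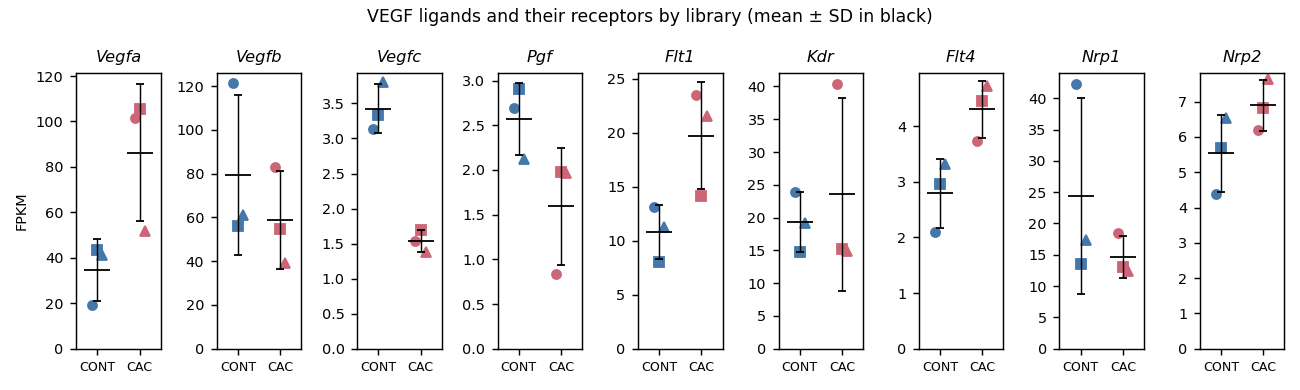
FPKM of the 4 VEGF ligands and 5 receptors or co-receptors in each library, with its own vertical axis from 0 for each gene. Blue is CONT and red is CAC, circles, squares and triangles are replicates 1, 2 and 3, and black bars are the mean ± SD of 3 libraries. The CAC libraries of Vegfa, Flt1 and Flt4 all lie above the CONT libraries, those of Vegfc and Pgf all lie below, and CONT replicate 1 is the highest point of Vegfb and Nrp1.

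Among the VEGF receptors, Flt1 and Flt4 were higher in CAC and Kdr overlapped between the groups. Flt1 encodes VEGFR1, which binds VEGF-A, VEGF-B and PlGF and also exists as a soluble decoy (ENSMUSG00000029648, chr5:147561604-147726011, minus strand). It had 218, 137 and 189 CPM in CONT and 386, 235 and 357 CPM in CAC. The lowest CAC library was just above the highest control, and the difference was 1.80-fold (log2 fold change 0.85, SE 0.29, edgeR unadjusted p = 0.0249, adjusted p = 0.318), with a range of 0.68 to 1.05 when 1 library was left out. The deposited values are per gene and do not separate the soluble form.

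Flt4 encodes VEGFR3, the receptor of VEGF-C on lymphatic endothelium (ENSMUSG00000020357, chr11:49609263-49652739, plus strand). It had 21.3, 30.5 and 33.9 CPM in CONT and 37.2, 45.2 and 47.7 CPM in CAC. The groups did not overlap, although CAC replicate 1 was near CONT replicate 3 (log2 fold change 0.60, SE 0.23, edgeR unadjusted p = 0.0364, adjusted p = 0.348). The receptor was thus higher and its ligand lower in CAC, which fixes the separation of their ratio, and Flt4 over Vegfc in FPKM was 0.671, 0.885 and 0.869 in CONT and 2.43, 2.62 and 3.42 in CAC. Kdr, which encodes VEGFR2 and was the most abundant receptor of the family per length, had 266, 167 and 216 CPM in CONT and 443, 170 and 165 CPM in CAC. A single library, CAC replicate 1, carried its higher mean, and the log2 fold change of 0.26 (SE 0.44) became -0.33 without that library. Flt1 over Kdr in FPKM was 0.549 to 0.586 in CONT and 0.582 to 1.45 in CAC, with overlapping groups (exact two-sided permutation p = 0.2). The co-receptors Nrp1 and Nrp2, neuropilins that bind VEGF ligands beside the receptors, had log2 fold changes of -0.75 (SE 0.46) and 0.29 (SE 0.21), and neither had an unadjusted p under 0.05 in edgeR. The control mean of Nrp1 rested on CONT replicate 1 (510 CPM against 165 and 212), and without it the log2 fold change was -0.09.

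Of the 14 other VEGF and hypoxia genes, 1 was higher and 1 lower at an unadjusted p under 0.05, with a median log2 fold change of 0.15. The lower gene was Apln, which encodes the peptide apelin, a product of adipocytes and endothelial tip cells. The higher gene was Arnt, the partner subunit of the hypoxia-inducible factors, with 65.7, 82.0 and 89.2 CPM in CONT and 137, 146 and 122 CPM in CAC. Every CAC library of Arnt was above every control (log2 fold change 0.78, SE 0.19, edgeR unadjusted p = 0.00574, adjusted p = 0.249), and DESeq2's adjusted p was 0.00427.

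Apelin and its receptor were both lower in CAC. Aplnr, the apelin receptor of veins and growing capillaries (ENSMUSG00000044338, chr2:85136225-85139923, plus strand), had 124, 60.4 and 68.7 CPM in CONT and 7.19, 37.8 and 16.4 CPM in CAC. All CAC libraries were below all controls, but they differed among themselves, with CAC replicate 2 closest to the controls. It had the most negative log2 fold change of the 38 genes, -2.04 (SE 0.62, a 4.12-fold difference), with an unadjusted p of 0.0146 and an adjusted p of 0.284 in edgeR, and 0.0334 in DESeq2. Leaving out CAC replicate 2 gave -2.82 and the smallest difference with 1 library left out was -1.60, and without CONT replicate 1 the unadjusted p in edgeR was 0.065. In the order by FPKM, Aplnr stood at position 14 in CONT and 29 in CAC. The ligand Apln had 30.5, 23.0 and 15.1 CPM in CONT and 5.5, 1.9 and 2.0 CPM in CAC. The lowest control was above the highest CAC library by a wide margin (log2 fold change -2.86, SE 0.54, edgeR unadjusted p = 0.00134, adjusted p = 0.215, DESeq2 adjusted p = 5.68e-05). The libraries lowest for the receptor and for the ligand were different ones, CAC replicate 1 for Aplnr and CAC replicate 2 for Apln.

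**Figure D3:**
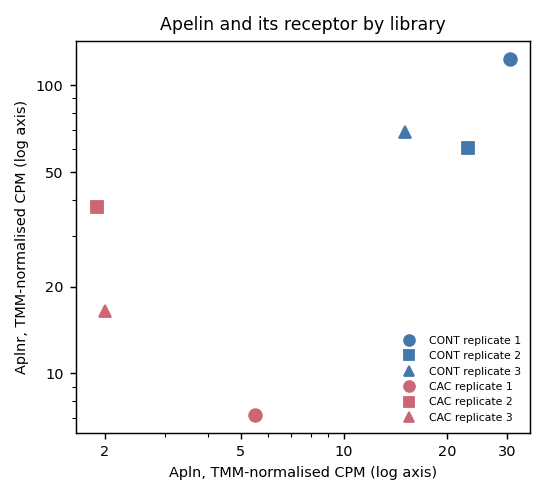
TMM-normalised CPM of Apln (horizontal, log axis) and Aplnr (vertical, log axis) in each of the 6 libraries, blue for CONT and red for CAC, with the replicate given by the symbol. The CONT libraries lie in the upper right, with at least 15.1 CPM of Apln and 60.4 CPM of Aplnr, and the CAC libraries lie lower on both axes.

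No angiopoietin or TIE receptor gene reached an unadjusted p below 0.05 in edgeR. Tie1, an orphan receptor that modulates TIE2, was the most abundant of them per length and had 336, 131 and 147 CPM in CONT and 129, 182 and 182 CPM in CAC, with a log2 fold change of -0.32 (SE 0.40) that turned to 0.25 without CONT replicate 1. CONT replicate 1 was above all others, and the remaining 5 libraries mixed. Tek, which encodes TIE2, had a log2 fold change of 0.09 (SE 0.21). The stabilizing ligand Angpt1 and the antagonist Angpt2, whose gene lies within Mcph1 on the other strand, had -0.40 (SE 0.43) and 0.43 (SE 0.33). In both, CAC replicate 3 was the extreme library, with 6.87 CPM of Angpt1 and 28.3 CPM of Angpt2, and its Angpt2 to Angpt1 ratio in FPKM was 5.81 against 0.860 to 1.21 in the other 5. Of 7 further genes of the angiopoietin and TIE pathway, 1 was higher and 1 lower at an unadjusted p under 0.05. Their median log2 fold change was 0.55, and 0.22 without CONT replicate 1. Foxo1, a transcription factor that TIE2 signalling restrains through AKT, had a log2 fold change of 0.90 (SE 0.24, edgeR unadjusted p = 0.00839, adjusted p = 0.266), with 66.8 to 99.7 CPM in CONT and 120 to 167 CPM in CAC. Angptl1, a secreted angiopoietin-like protein, had -2.35 (SE 0.71, edgeR unadjusted p = 0.014, adjusted p = 0.284), at 3.75 to 5.08 CPM in CONT and 0.227 to 1.56 CPM in CAC.

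None of the 4 Notch pathway genes reached an unadjusted p below 0.05 in edgeR. Dll4, the ligand of tip cells and the highest of them per length over all 6 libraries (in CAC it was level with Notch1, at 9.26 and 9.32 FPKM), had 97.0, 45.1 and 34.1 CPM in CONT and 45.9, 37.9 and 47.1 CPM in CAC. Apart from CONT replicate 1 the libraries mixed, and the log2 fold change was -0.43 (SE 0.39) with and 0.16 without that library. The receptor Notch1 had 0.92 (SE 0.55), with 26.8 CPM in CONT replicate 1 against 103 and 128 CPM in the other controls, and 0.51 without it. The ligand Jag1 had 0.16 (SE 0.23) and the target gene Hey1 -0.43 (SE 0.39), and the Dll4 to Jag1 ratio overlapped between the groups (exact two-sided permutation p = 0.6). Of 14 further Notch genes, 1 was higher and 1 lower at an unadjusted p under 0.05 (median -0.13). These were Maml1, a coactivator of the Notch complex (log2 fold change 0.53, SE 0.17, edgeR adjusted p = 0.295), and Heyl, a target gene also active in mural cells (-0.67, SE 0.25, edgeR adjusted p = 0.339), and in both the groups did not overlap.

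The transcription factors of endothelial identity did not reach an unadjusted p below 0.05 in edgeR. Sox18, the highest of them per length, had 236, 50.9 and 79.7 CPM in CONT and 127, 78.0 and 84.0 CPM in CAC, so that the controls spanned the CAC libraries. Its log2 fold change was -0.34 (SE 0.57) and turned to 0.57 without CONT replicate 1. The arterial factor Sox17 had 0.60 (SE 0.61), carried by CAC replicate 1 at 163 CPM against 38.1 and 44.9 CPM in the other CAC libraries, and -0.36 without it. CAC replicate 1 was also the highest library of Kdr. Erg, an ETS factor that maintains endothelial identity, had -0.14 (SE 0.28) and 0.21 without CONT replicate 1.

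Among the surface and junction proteins, Plvap and Vwf were higher and Icam2 lower in CAC without overlap, and the pan-endothelial markers overlapped. Plvap, which forms the diaphragms of fenestrae and caveolae (ENSMUSG00000034845, chr8:71497765-71511752, minus strand), had 66.3, 117 and 124 CPM in CONT and 186, 156 and 153 CPM in CAC. CONT replicate 1 was the low library, and the other controls were still below every CAC library (log2 fold change 0.69, SE 0.28, edgeR unadjusted p = 0.0455, adjusted p = 0.368), with 0.47 without it. Vwf, the clotting glycoprotein stored in endothelial granules and also in platelets, had 71.3, 216 and 179 CPM in CONT and 245, 398 and 303 CPM in CAC. The groups did not overlap, and the estimate missed the threshold narrowly (log2 fold change 1.02, SE 0.44, edgeR unadjusted p = 0.0547, adjusted p = 0.383). It was 0.69 without CONT replicate 1. Of 5 platelet markers, Gp1bb was at 0 in every library, 1 was lower at an unadjusted p under 0.05 and 0 were higher, and their summed level was 52.6 to 75.2 FPKM in CONT and 27.9 to 49.8 FPKM in CAC. The sum was mostly Pf4, and the median log2 fold change of the platelet markers tested was -0.77 with all libraries and 0.22 without CONT replicate 1, so that its side depended on that library. Pf4 itself was lower in both (-0.94 and -1.13). The part of platelets in the level of Vwf was not tested.

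Icam2, a leukocyte ligand constitutive on endothelium, had 53.6, 23.0 and 23.8 CPM in CONT and 21.4, 15.5 and 18.2 CPM in CAC. The groups did not overlap, but CAC replicate 1 was only slightly below CONT replicate 2. The log2 fold change was -0.86 (SE 0.38, edgeR unadjusted p = 0.0579, adjusted p = 0.389) and -0.33 without CONT replicate 1.

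The pan-endothelial junction and surface proteins overlapped between the groups with all 6 libraries, and several did not once CONT replicate 1 was left out. Pecam1, the adhesion molecule CD31, had a log2 fold change of 0.54 (SE 0.29), and 0.81 without CONT replicate 1, at an edgeR unadjusted p of 0.0121. Cdh5, VE-cadherin, had -0.08 (SE 0.28) and 0.18 without that library. Emcn, a sialomucin of capillaries and veins, had -0.10 (SE 0.40), and 0.51 without it (edgeR unadjusted p = 0.0171), with 46.4 to 57.7 CPM in CAC against 37.7 and 34.7 CPM in CONT replicates 2 and 3. Esam, a tight junction protein, had 0.19 (SE 0.47), and 0.94 without it (edgeR unadjusted p = 0.00347). Cldn5, the endothelial claudin and the most abundant of the 38 genes per length by the mean of each group, had 627, 113 and 92.0 CPM in CONT and 177, 173 and 390 CPM in CAC. The control mean rested on CONT replicate 1, and the log2 fold change of -0.17 (SE 0.79) became 1.28 without it (edgeR unadjusted p = 0.0368). In Pecam1, Esam, Emcn and Cldn5 every CAC library was above CONT replicates 2 and 3. Robo4, a guidance receptor that limits leak, had -0.35 (SE 0.45) and 0.15 without CONT replicate 1. Nos3, the endothelial nitric oxide synthase, had -0.01 (SE 0.32) and 0.41 without it. Ccm2l, which takes part in the cerebral cavernous malformation (CCM) pathway, had -0.60 (SE 0.45) and 0.0022 without it.

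Egfl7, a secreted matrix protein that guides vessel formation, showed how far a single library could reach. It had 620, 116 and 106 CPM in CONT and 120, 115 and 104 CPM in CAC, so that 5 libraries were nearly alike and CONT replicate 1 was far above them. The log2 fold change was -1.31 (SE 0.70) with that library and 0.04 without it. Egfl7 overlaps Agpat2, a triglyceride synthesis gene on the opposite strand, which was counted at 50116 reads over all libraries against 20463 for Egfl7. The kit is not known to mark strand, so reads from the overlap cannot be assigned with certainty.

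**Figure D4:**
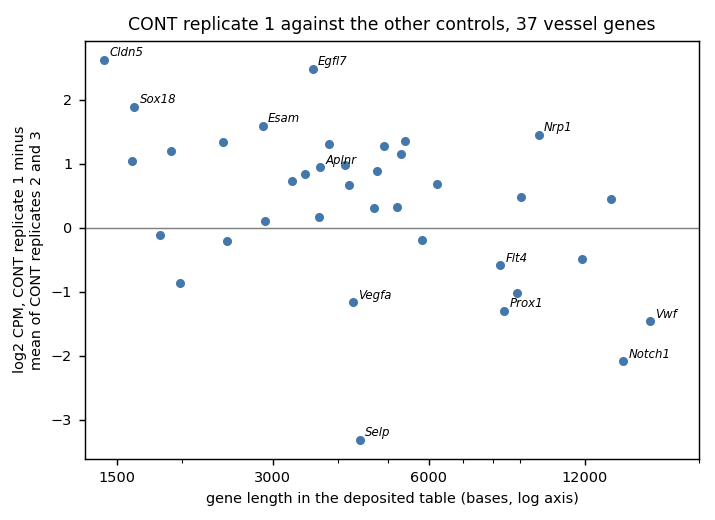
Log2 CPM of CONT replicate 1 minus the mean of CONT replicates 2 and 3 for 37 vessel genes, against gene length on a log axis. Sele is left out because it had 0 reads in CONT replicate 1. Short genes such as Cldn5 and Sox18 lie above 0 and the long genes Vwf and Notch1 lie below, with exceptions on both sides: the long genes Nrp1 and Flt1 lie above 0 and the short genes Plvap, Vegfc and Pdpn below.

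Over the 38 genes, Spearman's rho between gene length and the log2 ratio of CONT replicate 1 to the other controls was -0.367, a description over genes that share the same libraries. With an offset for gene length in the fit, the log2 fold changes were 1.34 for Vegfa, -1.07 for Vegfc, -1.04 for Pdpn, -2.0 for Aplnr, 0.80 for Plvap, 0.52 for Flt4 and 0.59 for Flt1. All 7 kept their direction, but Flt1 no longer passed (edgeR unadjusted p = 0.174), whereas the others did. In that fit 7 vessel genes, Vwf among them, had an unadjusted p under 0.05, against 14% of all genes. With 1 library left out in turn, Vegfc and Pdpn had an unadjusted p under 0.05 in edgeR whichever library was missing. Vegfa missed it without CAC replicate 1 (edgeR unadjusted p = 0.0501) or CAC replicate 2 (edgeR unadjusted p = 0.0723) and Aplnr without CONT replicate 1. Flt1 missed it without CONT replicates 2 or 3 or CAC replicates 1 or 3 (edgeR unadjusted p = 0.0577 to 0.087). Flt4 missed it without CONT replicate 2 or CAC replicates 2 or 3 (edgeR unadjusted p = 0.0679 to 0.0979), and Plvap without CONT replicate 2 or any CAC library (edgeR unadjusted p = 0.062 to 0.0822).

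The endothelial markers offer a further scale, on which each gene is set against the mean log2 CPM of the 11 markers in the same library. Aplnr on that scale was -0.91 ± 0.18 in CONT and -3.19 ± 1.29 in CAC (SD, n = 3), and Icam2 was -2.28 ± 0.02 and -3.04 ± 0.17. In these genes the groups did not overlap, and CONT replicate 1 was close to the other controls. Flt1 was 0.24 ± 0.50 and 1.08 ± 0.27, also without overlap. Vegfa, Vegfc, Pgf, Pdpn, Plvap, Flt4 and Vwf overlapped on this scale. In Vegfc, Pgf and Pdpn the overlap came from CONT replicate 1 alone, the library with the highest marker mean. Vegfc was -4.80 there, -3.45 and -3.30 in the other controls and -5.07, -4.72 and -5.26 in CAC. Pgf was -4.77 in that library against -3.40 and -3.89 in the other controls, with -4.26 as its highest CAC value, and Pdpn was -3.64 against -2.65 and -1.94, with -3.63 as its highest. Among genes that overlapped in CPM, Pecam1 did not overlap here and was 0.56 higher in CAC, and Egfl7, Nrp1 and Dll4 did not overlap and differed by -0.80, -0.59 and -0.29. The difference of Egfl7 rested largely on CONT replicate 1, at 1.23 against 0.046 and -0.11 in the other controls and -0.37, -0.25 and -0.63 in CAC. In Dll4 the lowest control and the highest CAC library were both at -1.75. Pecam1 and Egfl7 are themselves among the 11 markers.

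The lymphatic genes stood on different sides. Pdpn, podoplanin, which is found on lymphatic endothelium and also on mesothelial and stromal cells (ENSMUSG00000028583, chr4:143267431-143299564, minus strand), had 21.2, 17.8 and 29.8 CPM in CONT and 11.6, 11 and 8.27 CPM in CAC. Every control was above every CAC library, and the difference was 2.23-fold (log2 fold change -1.16, SE 0.28, edgeR unadjusted p = 0.00494, adjusted p = 0.241, DESeq2 adjusted p = 0.0177). The range with 1 library left out was -1.31 to -0.91. Prox1, the transcription factor that sets lymphatic identity, was the lowest of the 38 genes per length and had 1.34, 3.90 and 2.89 CPM in CONT and 1.44, 5.85 and 5.78 CPM in CAC. Replicate 1 of either group was low and the groups overlapped (log2 fold change 0.68, SE 0.67), on 15 to 153 reads a library.

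Among 10 other lymphatic genes, 2 were higher and 0 lower at an unadjusted p under 0.05, and none separated the groups (median 0.28). Reln, reelin, which collecting lymphatics secrete, had 7.67, 11.2 and 13.6 CPM in CONT and 11.6, 35.8 and 34.2 CPM in CAC (log2 fold change 1.33, SE 0.47, edgeR adjusted p = 0.327). Mmrn1, a matrix protein of lymphatic endothelium and platelets, had 13.02, 21.1 and 16.3 CPM in CONT and 17.3, 40.6 and 42.3 CPM in CAC (0.99, SE 0.38, edgeR adjusted p = 0.354). CAC replicates 2 and 3 were above every control and CAC replicate 1 was not in Prox1 and in 5 of the 10 listed genes, Reln, Mmrn1, Foxc2, Stab2 and, narrowly, Fxyd6. This split was seen after the values, and the other 5 listed genes did not show it. Among these, Lyve1, a hyaluronan receptor of lymphatic endothelium and of some macrophages, was highest in CAC replicate 1, with 109 CPM against 42.8 and 43.0 CPM in the other CAC libraries (log2 fold change 0.72, SE 0.65). It was named after its values were seen. The CAC libraries of Pdpn were all low.

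Beside Pdpn and Vegfc, the fibroblast and progenitor markers were lower in CAC in 4 of 8 genes at an unadjusted p under 0.05, with 0 higher. Their summed level was 237 to 314 FPKM in CONT and 196 to 285 FPKM in CAC, so that the sums overlapped. The 8 mesothelial markers summed to 59.1 to 71.4 FPKM in CONT and 27.2 to 84.5 FPKM in CAC, with 1 gene higher and 0 lower, and no marker of either list was at 0 throughout. The part of these cells in the values of Pdpn and Vegfc was not tested. Mural cells, which wrap capillaries, had 2 of 12 markers lower and 0 higher, and summed to 293 to 298 FPKM in CONT and 219 to 355 FPKM in CAC. Epididymal RNA was present in some eWAT libraries: its 7 markers summed to 10.7 to 6551 FPKM in CONT, the highest in CONT replicate 3, and to 0.0412 to 15.3 FPKM in CAC, and its part in the vessel genes was not tested. The 8 adipocyte markers summed to 3956 to 7767 FPKM in CONT and 4490 to 8759 FPKM in CAC, with 1 higher and 0 lower.

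The adhesion molecules of activated endothelium overlapped between the groups, and none had an unadjusted p under 0.05 in edgeR. Selp, P-selectin of endothelium and platelets and the highest of them per length, had 2.94, 31.3 and 28.2 CPM in CONT and 25.2, 38.5 and 104 CPM in CAC. CONT replicate 1 was low, CAC replicate 3 was high and the other libraries lay together (log2 fold change 1.42, SE 0.88, edgeR unadjusted p = 0.154). The estimate was 0.92 without CONT replicate 1 and lay between 0.62 and 1.84 with 1 library left out in turn. Sele, E-selectin, induced by inflammatory cytokines, had 0 reads in CONT replicate 1, where 3 counts stand for 0.268 CPM, and 2.09 to 6.70 CPM in the other libraries, with a log2 fold change of 0.15 (SE 1.27) that was -0.40 without that library. Vcam1, the ligand of leukocyte VLA-4, had 0.10 (SE 0.39) and -0.15 without it.

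Beside these genes, 4 of 5 neutrophil markers were higher and 0 lower at an unadjusted p under 0.05, and their sum was 3.30 to 59.8 FPKM in CONT and 178 to 1395 FPKM in CAC, without overlap. The 6 T cell markers summed to 2.40 to 4.16 FPKM in CONT and 2.04 to 2.52 FPKM in CAC, and the 5 B cell markers to 12.7 to 28.6 FPKM in CONT and 2.71 to 6.65 FPKM in CAC, with 2 B cell markers lower. The 8 macrophage markers summed to 210 to 659 FPKM in CONT and 309 to 501 FPKM in CAC, with 0 past the threshold in either direction. Erythroid markers, 5 genes, summed to 260 to 5918 FPKM in CONT, the highest in CONT replicate 1, and to 1842 to 2487 FPKM in CAC. The part of blood and immune cells in the levels of Selp, Sele, Vcam1 and Vwf was not tested.

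The 37 other endothelial genes were measured as a wider view of the same cells, and 2 were higher and 3 lower at an unadjusted p under 0.05. Their median log2 fold change was -0.12 with all libraries and 0.13 without CONT replicate 1, so that its side depended on that library. S1pr1, the sphingosine 1-phosphate receptor that stabilizes junctions, had 147, 98.6 and 112 CPM in CONT and 322, 194 and 283 CPM in CAC. Every CAC library exceeded every control (log2 fold change 1.16, SE 0.28, edgeR unadjusted p = 0.0046, adjusted p = 0.239, DESeq2 adjusted p = 0.00691). Cyyr1 had a log2 fold change of 1.42 (SE 0.42), with 29.5 to 77.5 CPM in CONT and 96.0 to 189 CPM in CAC. Lmo2, an adaptor of the SCL transcription complex, was lower (-0.68, SE 0.19), with 37.4 to 44.1 CPM in CONT and 20.7 to 28.5 CPM in CAC. Myct1 had -1.74 (SE 0.62), and -0.65 without CONT replicate 1, which held 101 CPM against 22.7 and 23.4 CPM in the other controls. Eng had 0.04 (SE 0.40). The 7 genes of the CCM and KLF pathway had 0 past the threshold in edgeR's test, and those with the smallest p were Map3k3, the MEKK3 kinase that CCM proteins restrain (0.77, SE 0.35, without overlap), and Klf2, a flow-induced factor (-0.70, SE 0.80, and 0.73 without CONT replicate 1).

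**Figure D5:**
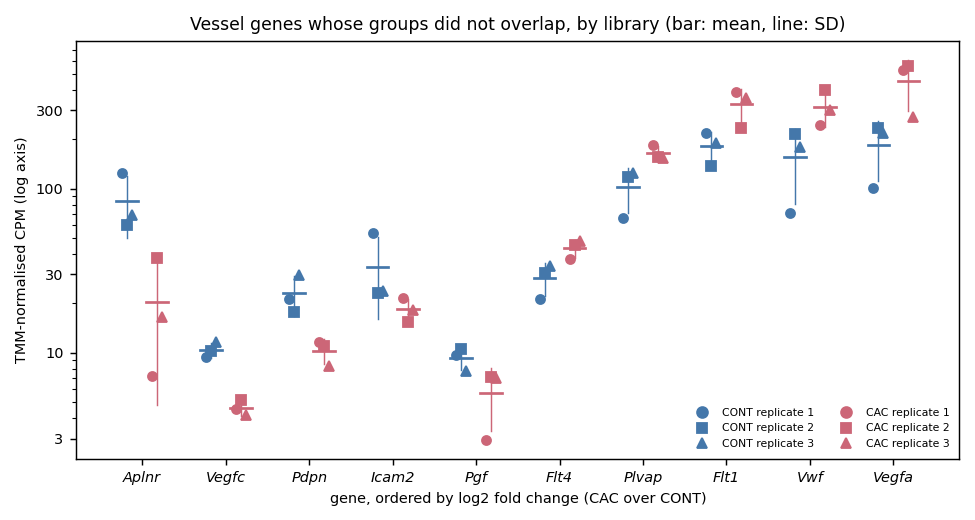
TMM-normalised CPM on a log axis in each library for the 10 vessel genes whose CONT (blue) and CAC (red) libraries did not overlap, ordered by log2 fold change, with the mean as a bar, the SD as a line and the replicate given by the symbol. Vegfc has the tightest groups, and the CAC libraries of Aplnr spread from 7.19 to 37.8 CPM.

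Per length, the vessel genes spanned a wide range. By mean FPKM over all libraries, 23 of 38 were above 10 FPKM and 9 were below 5 FPKM. In CONT the order began with Cldn5 (158 ± 174 FPKM), Vegfb (79.5 ± 36.5) and Cdh5 (78.4 ± 23.2), which did not differ beyond their spread. The first place of Cldn5 there rested on CONT replicate 1, with 359 FPKM. In CONT replicates 2 and 3 it had 63.5 and 52.2 FPKM, against 60.4 and 70.1 FPKM of Cdh5 and 56.0 and 60.9 FPKM of Vegfb. In CAC it began with Cldn5 (142 ± 71.1 FPKM), Vegfa (86.3 ± 30.04) and Cdh5 (75.0 ± 8.89), likewise within their spread. At the bottom of both orders were Prox1 (0.259 ± 0.122 FPKM in CONT and 0.423 ± 0.244 in CAC) and Sele (0.915 ± 0.918 and 1.04 ± 0.509).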

How the data were processed

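The submitters' processing notes name HISAT2 2.0.5 and featureCounts 1.5.0-p3. Reads were aligned to the mouse genome of Ensembl release 94 (GRCm38), and the strand setting of counting was not given in the sources used here. The authors deposited whole-number counts per gene without normalization, and FPKM values, which were found here to be these counts over the length of the gene and a constant for each library. Libraries of 15713794 to 25926425 counts were grouped by the sample labels.

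Counts were tested in R 4.3.3 with edgeR 4.0.16 (quasi-likelihood, robust, TMM, filterByExpr, Benjamini-Hochberg adjustment over all genes tested, condition as the only term). CPM use the TMM-adjusted library size. The alternatives were DESeq2 1.42.0, limma 3.58.1 (voom with sample quality weights, and log2(FPKM + 1) or log2(FPKM + 0.1)), other normalizations and filters, mitochondrial genes left out, an offset for gene length, the replicate block and each library left out. The smallest possible exact permutation p was 0.1.

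The vessel genes, further lists and marker lists were chosen with earlier results of these data known. Values in every library are given for vessel genes with an unadjusted p under 0.05 or without overlap and for the highest gene of each role. Of each further list, the genes with both, or otherwise the 2 with the smallest p, are named with a fold change. Other values by library, among them those of Egfl7 and Prox1, the markers of other cell types named with a fold change, and Eng were chosen after they were seen. A further list of adhesion genes is not reported here. Promoters are RefSeq's (GRCm38.p6).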

Additional observations from a re-analysis of the deposited data

How the results depend on the processing

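CONT replicate 1, with its mitochondrial share and length trend, limits what the controls can show, and 3 mice a group with a common dispersion of 0.265 limit the rest. The number of vessel genes with an adjusted p under 0.05 was 4 with DESeq2, 1 with voom with sample quality weights, and 0 under the other alternatives with all libraries. With 1 library left out it was 0 with edgeR for every library and 1 to 9 with DESeq2, a setting added after seeing the data. The number with an unadjusted p under 0.05 was 11 with voom, 4 to 11 with a library left out in edgeR and 6 to 12 in DESeq2, and the number without overlap was 10 to 17, and 9 without a filter or with the length offset. Over all genes, 4884 had an unadjusted p under 0.05 with voom, 1384 to 3032 with a library left out in edgeR and 2664 to 4453 in DESeq2, against 2294 of the 17296. In edgeR, the number with an unadjusted p under 0.05 was 11 without CONT replicate 1 and 4 without CAC replicate 2 or 3, and the number without overlap was 17 without CAC replicate 1. All genes without overlap rose too, to 6411 of 19194 without CAC replicate 1 and 5079 to 7337 over the libraries left out, against 3883 with all libraries. In DESeq2, the number with an adjusted p under 0.05 was 9 without CONT replicate 1, 1 without CONT replicate 3, 2 without CONT replicate 2, CAC replicate 1 or CAC replicate 3, and 3 without CAC replicate 2. Over all genes these fits called 2123, 888, 639, 1506, 615 and 691, in the same order, against 917 with all libraries.

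The replicate numbers did not pair the libraries (correlations of same-numbered deviations 0.268, -0.227 and -0.264), and with the replicate block 9 vessel genes had an unadjusted p under 0.05, the median was 0.07 and 1992 of all genes passed.

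Under these alternatives, 20 vessel genes kept their direction throughout, the 10 without overlap among them, and 18 turned in at least 1. With voom, Cdh5 was 0.06, Tie1 0.26, Dll4 0.0037, Sox18 0.38, Erg 0.042, Sele -0.27 and Vcam1 -0.36. Emcn was 0.39 with voom, 0.046 with the block, and 0.041, 0.060 and 0.041 on log2(FPKM + 1), log2(FPKM + 0.1) and log2(FPKM + 1) without a filter. Cldn5 was 0.90 with voom, 0.34 with the block, 0.31, 0.32 and 0.31 on those FPKM scales and 0.11 with the length offset. Nos3 was 0.064 without a filter, 0.0018 with at least 10 counts in every library, 0.061 with the block, 0.0070 with DESeq2, 0.24 with voom, 0.073, 0.081 and 0.073 on the FPKM scales, 0.013 without mitochondrial genes and 0.0071 with the length offset. With 1 library left out, over edgeR and DESeq2, the ranges that crossed 0 were -0.90 to 0.043 for Ccm2l, -0.23 to 0.23 for Cdh5, -0.65 to 1.33 for Cldn5, -0.69 to 0.20 for Dll4, -1.69 to 0.085 for Egfl7, -0.33 to 0.55 for Emcn, -0.28 to 0.25 for Erg, -0.078 to 0.98 for Esam, -0.016 to 0.36 for Jag1, -0.35 to 0.53 for Kdr, -0.20 to 0.45 for Nos3, -0.78 to 0.19 for Robo4, -0.40 to 1.19 for Sele, -0.37 to 0.99 for Sox17, -0.71 to 0.61 for Sox18, -0.55 to 0.30 for Tie1, -0.24 to 0.39 for Vcam1 and -0.76 to 0.031 for Vegfb. The cause was not tested.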
